A study of Mus musculus with 25 samples.

Results

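The genes described here were 9 genes of the interferon response, *Irf1*, *Irf7*, *Irf9*, *Stat2*, *Ifit1*, *Ifit3*, *Isg15*, *Oasl2* and *Rsad2*, taken by symbol from a table of 52636 genes counted in mouse *soleus* muscle, a small postural muscle of the calf. Each symbol matched 1 gene, and all 9 passed the filter on low counts that left 16340 genes for testing. The study asked whether loss of the DNA methyltransferase DNMT3A from muscle changes the transcriptional response to exercise, and RNA was sequenced from 25 mice aged 12 weeks. All mice were on a C57BL/6 background and homozygous for *Dnmt3a* alleles flanked by LoxP sites, so that the wild-type (WT) mice were Dnmt3a flox/flox and the knockout mice (mD3AKO) carried in addition a Cre transgene driven by the muscle creatine kinase promoter (mCK-Cre). The authors propose satellite and non-muscle cells as the likely source of *Dnmt3a* RNA left in mD3AKO muscle, because mCK-Cre comes on late. This source was not tested here. Exercised mice ran on a treadmill for 30 min and were killed 60 min later, and rested mice spent 30 min in a sham treadmill arena. The groups were 5 rested WT mice (2 females, 3 males), 7 exercised WT mice (4 females, 3 males), 7 rested mD3AKO mice (3 females, 4 males) and 6 exercised mD3AKO mice (3 females, 3 males), with 1 library from each mouse.

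Interferons are secreted proteins that warn tissues of viral infection. A type I interferon binds the receptor IFNAR1/IFNAR2, the kinases JAK1 and TYK2 are activated, and a complex (ISGF3) that holds STAT2 and IRF9 forms and binds the interferon-stimulated response element (ISRE) in target promoters. Interferon gamma acts through a different element, the gamma-activated sequence (GAS). Of the genes studied, *Irf7*, *Irf9*, *Stat2* and *Irf1* encode transcription factors of the pathway, and *Ifit1*, *Ifit3*, *Isg15*, *Oasl2* and *Rsad2* are target genes whose products act against viruses. In uninfected tissue, these genes are expressed at a low tonic level.

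Libraries held 22671457 to 37431801 counts on genes. In the label checks, *Dnmt3a* was at 34.5 to 53.9 CPM, the counts of a gene scaled to a common library size, in the 13 mD3AKO mice and at 93.4 to 131 CPM in the 12 WT mice, without overlap, and *Xist* and *Ddx3y* separated the 12 females from the 13 males without exception. Library sizes for CPM were set by the trimmed mean of M-values (TMM). The rested male mD3AKO mouse 15 had the lowest total, and its 3 most counted genes took 39.5% of the counts, against 15.5% to 20.3% in the other mice. Mouse 19 (exercised mD3AKO, male) and mouse 21 (rested mD3AKO, female) stood above the rest of their groups in most of the genes described here, so results are also given without these 2 mice. Both were chosen after their values were seen. Leaving them out lowers the mD3AKO levels of these genes by construction and tends to lower the correlations between them.

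The promoter windows of the genes were read from RefSeq (GRCm38.p6, 250 bases before to 50 bases after the start site), and all 9 genes matched, with 11 windows in all. The ISRE was searched on both strands as GAAA, any 2 bases and GAAA, and the GAS as TTCNNNGAA, which is its own reverse complement, where N is any base and overlapping matches were kept. An exact ISRE was found in *Stat2*, *Ifit1*, *Ifit3*, *Isg15* and *Rsad2*. These were 5 of the 9 genes, beside 1079 of all 27025 genes, and 5 of the 11 windows, beside 3.44% of all 32851 promoter windows. The GAS was found in *Irf1*, which was 1 of the 9 genes, beside 2582 of all 27025 genes, and 1 of the 11 windows, beside 8.30% of all windows. The windows of the 4 target genes with an ISRE and that of *Irf1*, which held the GAS, are shown as examples of these motifs. Every motif match is in capitals, and each sequence runs 5′ to 3′ along the strand of its gene. The windows lie at chr19:34640639-34640938 (+) for *Ifit1*, chr19:34583279-34583578 (+) for *Ifit3*, chr4:156200769-156201068 (-) for *Isg15*, chr12:26456403-26456702 (-) for *Rsad2* and chr11:53769764-53770063 (+) for *Irf1*.
Ifit1: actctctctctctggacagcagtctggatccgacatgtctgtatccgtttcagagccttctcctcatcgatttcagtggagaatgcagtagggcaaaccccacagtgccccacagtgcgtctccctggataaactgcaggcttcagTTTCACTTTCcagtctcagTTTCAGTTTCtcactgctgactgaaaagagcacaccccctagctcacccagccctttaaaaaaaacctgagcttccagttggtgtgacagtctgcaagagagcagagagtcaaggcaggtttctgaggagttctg
Ifit3: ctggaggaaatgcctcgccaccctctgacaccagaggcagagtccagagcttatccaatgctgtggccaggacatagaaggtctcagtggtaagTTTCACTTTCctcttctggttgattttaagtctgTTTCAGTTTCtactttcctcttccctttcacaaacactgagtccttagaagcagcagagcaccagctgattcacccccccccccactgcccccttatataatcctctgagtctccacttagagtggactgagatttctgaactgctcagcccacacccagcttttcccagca
Isg15: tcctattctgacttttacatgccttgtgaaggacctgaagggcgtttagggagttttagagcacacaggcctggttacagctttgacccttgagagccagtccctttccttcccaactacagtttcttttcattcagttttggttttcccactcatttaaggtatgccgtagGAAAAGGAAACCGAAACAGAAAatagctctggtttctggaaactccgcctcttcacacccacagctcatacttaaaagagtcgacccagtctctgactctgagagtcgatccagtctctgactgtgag
Rsad2: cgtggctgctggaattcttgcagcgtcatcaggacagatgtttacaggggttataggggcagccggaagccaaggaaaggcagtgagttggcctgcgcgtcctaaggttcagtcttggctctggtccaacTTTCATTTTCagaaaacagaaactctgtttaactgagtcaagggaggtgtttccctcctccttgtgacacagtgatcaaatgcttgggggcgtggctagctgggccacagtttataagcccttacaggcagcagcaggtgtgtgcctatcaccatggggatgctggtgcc
Irf1: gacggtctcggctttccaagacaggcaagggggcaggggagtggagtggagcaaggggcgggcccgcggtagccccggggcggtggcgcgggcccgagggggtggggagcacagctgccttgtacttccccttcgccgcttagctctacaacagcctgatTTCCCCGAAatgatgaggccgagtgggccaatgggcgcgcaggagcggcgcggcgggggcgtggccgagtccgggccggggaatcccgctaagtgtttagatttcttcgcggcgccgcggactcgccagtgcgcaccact
*Ifit1* and *Ifit3* each held 2 ISRE matches, with first bases at -104 and -85 from the start site in *Ifit1* and at -156 and -122 in *Ifit3*. Both genes held the same 2 10-base matches, TTTCACTTTC and TTTCAGTTTC, in the same order. The capitals of *Isg15* are 3 overlapping ISRE matches starting at -78, -72 and -66. *Rsad2* held 1 ISRE at -120, and *Irf1* held the GAS match TTCCCCGAA at -90. No exact match to these letters was found in the windows of *Irf7*, *Irf9* and *Oasl2*. A match is a string of letters and was not a measure of binding.

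Expression of the 9 genes was low. Per kilobase of exon, a scale on which genes of different length can be compared, *Irf1* was the most abundant at 3.50 ± 0.488 CPM per kb (mean ± SD, n = 25 mice) and *Oasl2* the least abundant at 0.456 ± 0.143 CPM per kb. *Irf1* was above *Ifit3* (1.75 ± 0.594 CPM per kb), the next in order, in all 25 mice, although the ranges of both genes over mice overlapped. The order continued with *Irf9* (1.70 ± 0.276), *Rsad2* (1.55 ± 0.536), *Ifit1* (1.16 ± 0.423), *Isg15* (1.13 ± 0.406), *Irf7* (1.06 ± 0.229) and *Stat2* (1.04 ± 0.199), all in CPM per kb. The ranges over mice of these neighbours overlapped, so that their order was not resolved. *Stat2* was above *Oasl2* in every mouse without overlap, with 0.775 as its lowest value against 0.746 CPM per kb as the highest of *Oasl2*. Counts per library set the precision, ranging from 9 to 62 for *Isg15*, from 81 to 373 for *Rsad2* and from 196 to 717 for *Irf1*.

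**Figure D1:**
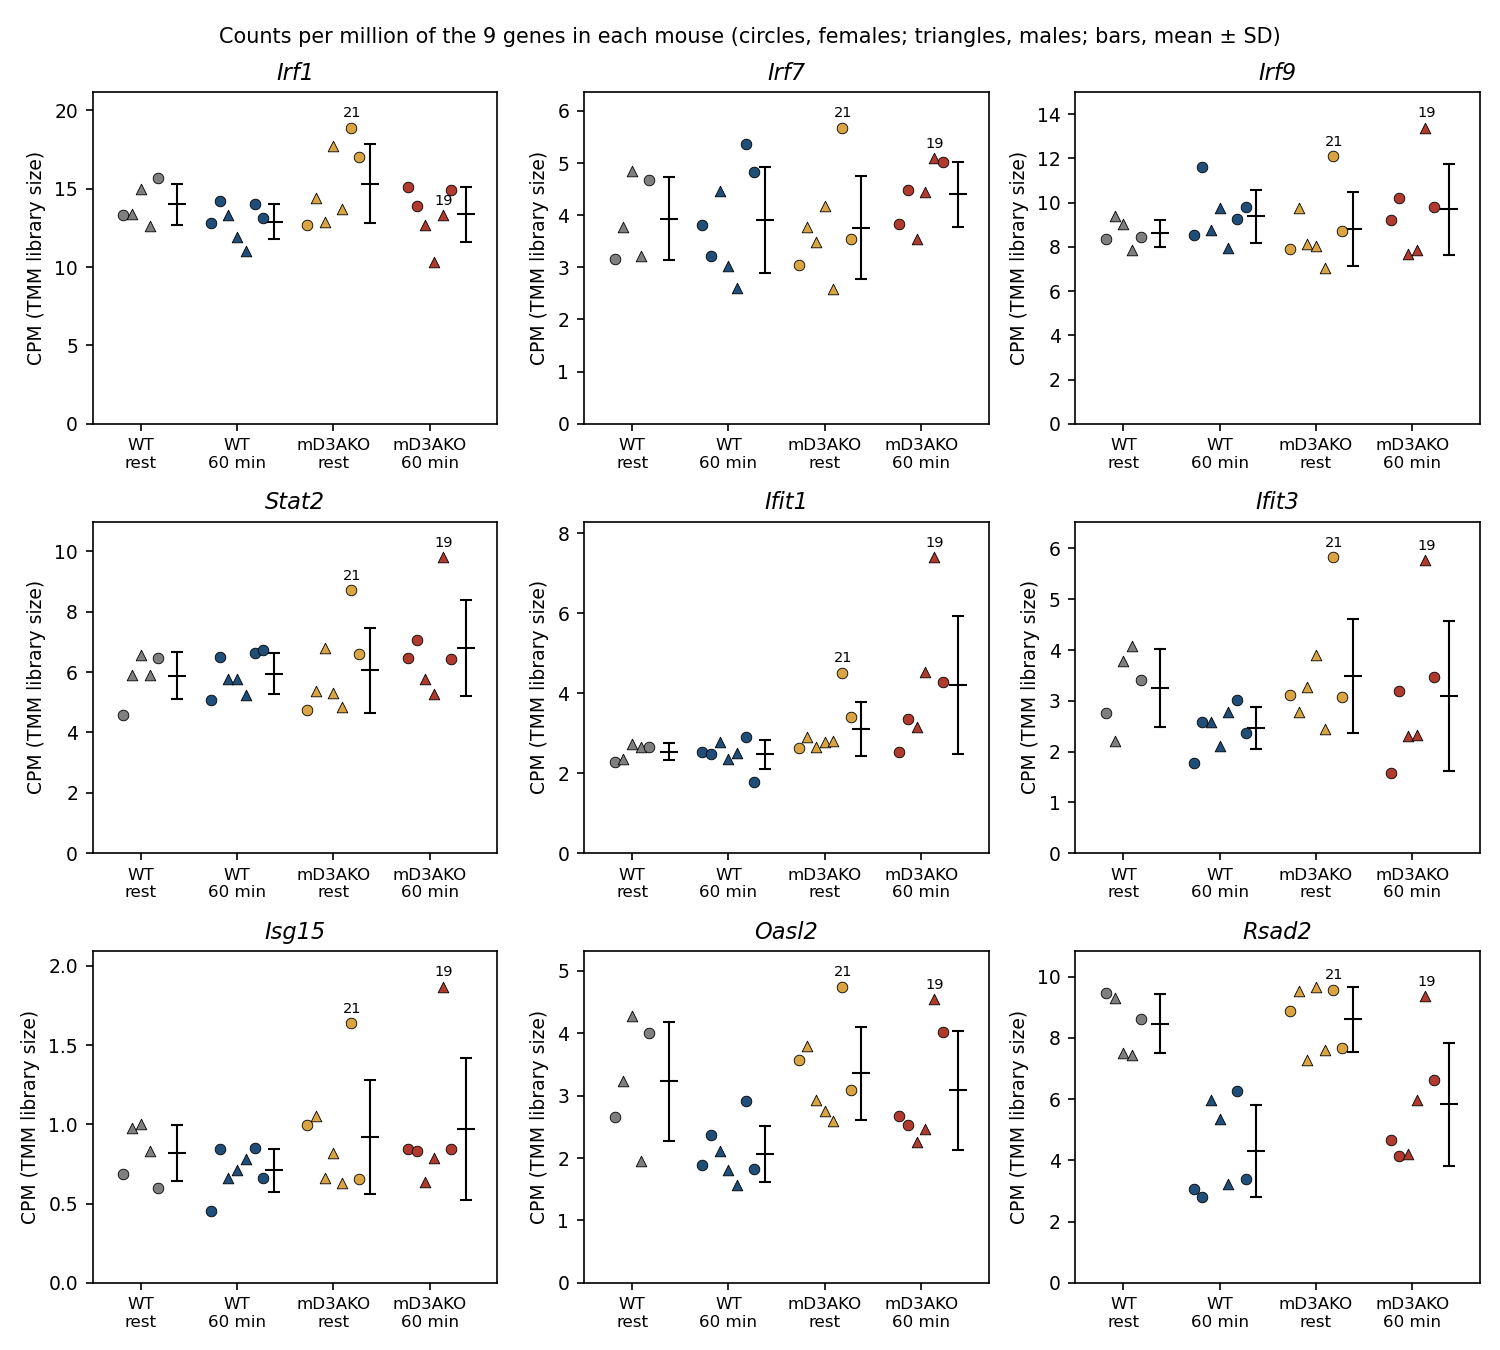
CPM of each gene in each mouse, by genotype and exercise, with circles for females, triangles for males and bars for mean ± SD. Exercised *Rsad2* values lie below the rested values in 12 of 13 mice, and the labelled mice 19 and 21 lie at the top of their groups for most genes.

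Exercise was accompanied by a lower level of 1 of the 9 genes, *Rsad2*, which encodes viperin, an enzyme that makes a chain-terminating nucleotide and so blocks viral RNA synthesis. In rested WT mice, *Rsad2* was at 7.44, 7.50, 8.63, 9.29 and 9.46 CPM. In exercised WT mice it ranged from 2.81 to 6.26 CPM with a median of 3.39 CPM. In rested mD3AKO mice the lowest, median and highest values were 7.28, 8.89 and 9.68 CPM, and in exercised mD3AKO mice they were 4.15, 5.31 and 9.37 CPM. The exercised WT mice lay entirely below the rested WT mice, and in mD3AKO mice only mouse 19, at 9.37 CPM, reached the rested range, the next highest exercised mouse being at 6.64 CPM. Over both genotypes, *Rsad2* was at 8.55 ± 0.971 CPM at rest (mean ± SD, n = 12) and 5.01 ± 1.85 CPM after exercise (n = 13). The log2 fold change was -0.77 (SE 0.138), that is 0.59 of the rested level, with an adjusted p of 0.000325 by the quasi-likelihood test of edgeR with Benjamini-Hochberg adjustment over all genes tested. Among all 16340 genes, 10.4% passed this test for exercise and 4.69% did so in the lower direction, so that 1 of 9 is near the share over all genes. In bulk tissue, fewer cells of a type and less RNA per cell cannot be told apart.

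The fall of *Rsad2* remained called when each of the 25 mice was left out in turn, with log2 fold changes of -0.87 to -0.73. In a fit on males alone the log2 fold change was -0.57 and the adjusted p was 0.0943 by edgeR, and in a fit on females alone *Rsad2* passed the test. Within WT mice the log2 fold change was -0.97 (SE 0.199, adjusted p = 0.00358 by edgeR), and within mD3AKO mice it was -0.56 (SE 0.192, adjusted p = 0.0844 by edgeR). Within WT, the log2 fold change of *Rsad2* was -0.74 (adjusted p = 0.306 by edgeR) in males alone and -1.22 (adjusted p = 0.0615) in females alone. Within mD3AKO mice, the adjusted p of *Rsad2* was 0.0473 with DESeq2, and it was 0.0130 by edgeR without mouse 19. The difference between the genotypes in this response was 0.41 (SE 0.276, adjusted p = 1.00 by edgeR), and the difference between males and females was 0.42 (SE 0.283, adjusted p = 1.00 by edgeR), so that neither passed the test. With 1 mouse left out, the difference between the genotypes in the response of *Rsad2* ranged from 0.22 to 0.52. Within WT, 1 of the 9 genes passed the test beside 3.59% of all genes, and within mD3AKO mice 0 did beside 6.02% of all genes.

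*Oasl2*, an oligoadenylate synthetase-like gene whose product takes part in sensing of viral RNA, had the next lowest fitted change after exercise but did not pass the test. Its values in rested WT mice were 1.95, 2.66, 3.24, 4.01 and 4.28 CPM, and in exercised WT mice they ranged from 1.57 to 2.91 CPM with a median of 1.89 CPM. In mD3AKO mice the lowest, median and highest values were 2.59, 3.09 and 4.75 CPM at rest and 2.26, 2.61 and 4.55 CPM after exercise. The groups overlapped in both genotypes, and 11 of the 13 exercised mice lay below the median of the rested mice. The log2 fold change was -0.39 (SE 0.142, adjusted p = 0.0895 by edgeR), and it was -0.64 (SE 0.207, adjusted p = 0.0990) within WT and -0.13 (SE 0.195, adjusted p = 0.813) within mD3AKO mice. Within WT, *Oasl2* passed the test with blocks of mouse numbers in the model (log2 fold change -0.66, adjusted p = 0.0479 by edgeR), and without mouse 14 or 22 (adjusted p = 0.0331 and 0.0474). Over both genotypes, *Oasl2* passed the test for exercise when mouse 14, 19 or 22 was left out, with adjusted p-values of 0.0327, 0.0306 and 0.0484 by edgeR.

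The transcription factors did not pass the test for exercise. *Irf1*, a factor induced most strongly by interferon gamma, was at 12.6, 13.3, 13.4, 15.0 and 15.7 CPM in rested WT mice and at 11.0 to 14.2 CPM in exercised WT mice, and its log2 fold change over both genotypes was -0.16 (SE 0.0713, adjusted p = 0.184 by edgeR). In mD3AKO mice *Irf1* ranged from 12.7 to 18.9 CPM at rest and from 10.3 to 15.1 CPM after exercise. These ranges overlapped in both genotypes. *Irf7*, the main amplifier of type I interferon production, was at 3.16, 3.21, 3.78, 4.67 and 4.84 CPM in rested WT mice and at 2.60 to 5.36 CPM in exercised WT mice, and *Irf9* and *Stat2*, which encode subunits of ISGF3, were at 7.84 to 9.38 and 4.59 to 6.58 CPM at rest in WT. The log2 fold changes of *Irf7*, *Irf9* and *Stat2* after exercise were 0.10 (SE 0.125), 0.13 (SE 0.0883) and 0.09 (SE 0.102).

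Among the remaining target genes, *Ifit3* had a log2 fold change of -0.29 (SE 0.168, adjusted p = 0.348 by edgeR) after exercise. *Isg15*, a ubiquitin-like protein that is attached to other proteins, had -0.08 (SE 0.178), and *Ifit1*, which binds viral RNA by its cap structure, had 0.20 (SE 0.134). None of these 3 genes passed the test. With 1 mouse left out, the log2 fold change of *Ifit1* ranged from 0.078 to 0.26. Over the 9 genes, 4 had a higher and 5 a lower fitted level after exercise, with a median log2 fold change of -0.08, beside a median of -0.00088 over all genes tested. *Ifit3* shared 61.8% of its 31-base sequence words with transcripts of *Ifit3b*, and *Ifit1* shared 9.16% of its own with *Ifit1bl2*, so reads of these pairs may not have been assigned to 1 gene without doubt. Of the words of *Isg15*, 12.8% also occurred in other genes, and an exon of *Irf9* overlapped one of *Rnf31* on the same strand over 123 bases. Exons of *Irf1* and *Irf7* overlapped antisense genes over 135 and 45 bases. *Ifit3b* itself had a log2 fold change of -0.14 (SE 0.136, adjusted p = 0.653 by edgeR).

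**Figure D2:**
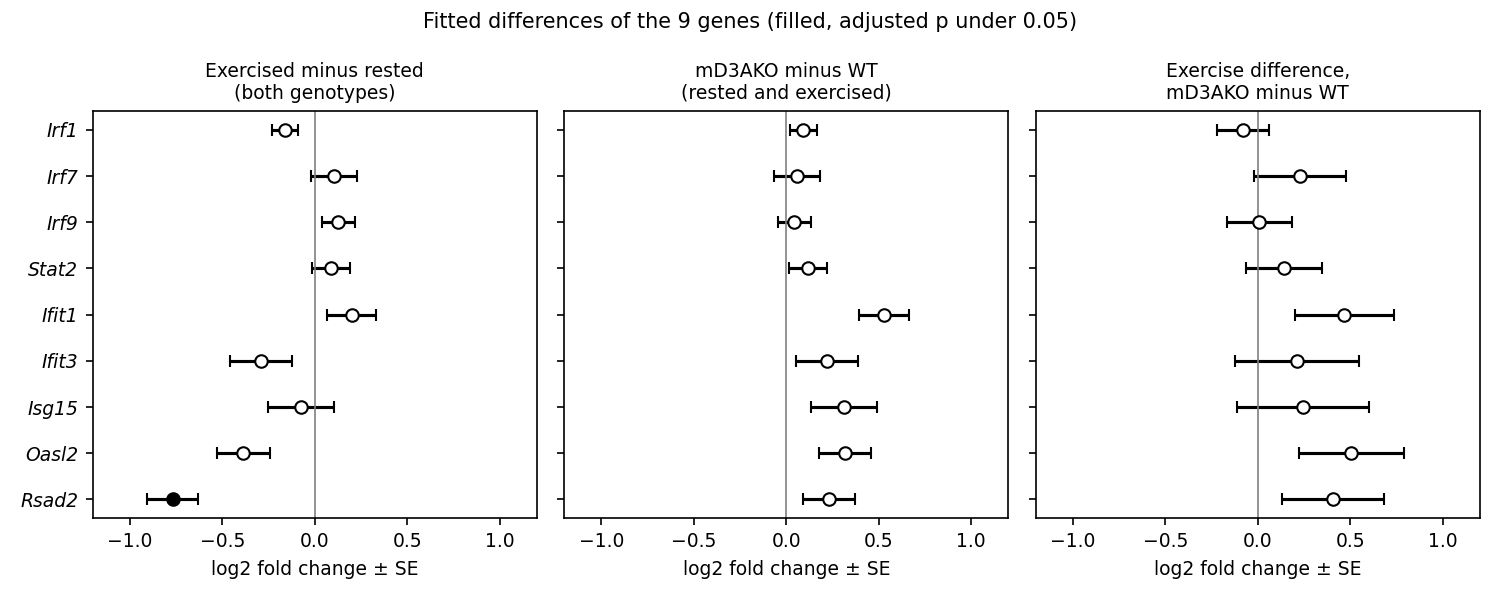
Fitted log2 fold change ± SE of each gene for exercise, for genotype and for their interaction, with filled points where the adjusted p was under 0.05. The only filled point is *Rsad2* for exercise at -0.77, and all 9 points for genotype lie above 0.

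Loss of *Dnmt3a* was not accompanied by a change in any of the 9 genes that passed the test, beside 0.269% of all genes tested that did. All 9 fitted differences were above 0, from 0.04 for *Irf9* to 0.53 for *Ifit1*, with a median of 0.22 beside a median of 0.0070 over all genes, and 2 of them, those of *Ifit1* and *Oasl2*, had an unadjusted p under 0.05, beside 1018 of the 16340 genes tested. The 9 genes varied together across mice, so that their common sign is not 9 independent observations. Without mice 19 and 21, the log2 fold changes of *Irf7*, *Irf9*, *Stat2* and *Ifit3* were -0.03, -0.06, -0.0016 and -0.0033. Both mice are mD3AKO and were chosen for high values in these genes, so lower differences without them follow from that choice.

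*Ifit1* had the largest difference between genotypes. It was at 2.27, 2.36, 2.65, 2.66 and 2.74 CPM in rested WT mice and at 1.77 to 2.91 CPM, with a median of 2.51 CPM, in exercised WT mice. In mD3AKO mice the lowest, median and highest values were 2.64, 2.80 and 4.51 CPM at rest and 2.53, 3.81 and 7.40 CPM after exercise. All 6 exercised mD3AKO mice were above the median of the exercised WT mice, and 5 of them were above every exercised WT mouse. The log2 fold change for genotype was 0.53 (SE 0.134, adjusted p = 0.121 by edgeR), and with DESeq2 its adjusted p was 0.0312. After exercise alone, the difference was 0.76 (SE 0.183, adjusted p = 0.186 by edgeR), and with DESeq2 its adjusted p was 0.0364. At rest it was 0.29 (SE 0.195, adjusted p = 1.00 by edgeR). Of all genes tested, 0.11% passed the test after exercise and 0.0918% at rest, and of the 9 genes 0 did in either. The call for *Ifit1* therefore differed between the tools, and by edgeR it was also reached when mouse 3 was left out, with an adjusted p of 0.0401. Without mice 19 and 21 together, the *Ifit1* difference was 0.35 over both conditions and 0.53 after exercise. A lower value follows from leaving out mD3AKO mice that were chosen for high values.

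A difference between genotypes in the response to exercise passed the test of edgeR in 0 of the 9 genes and in 0 of the 16340 genes tested (0%). At an unadjusted p under 0.05 there were 403 genes, none of which was among the 9. The fitted differences in response were above 0 for 8 of the 9 genes, the largest being those of *Oasl2* at 0.50 (SE 0.284) and *Ifit1* at 0.47 (SE 0.267). With 1 mouse left out, these differences ranged from 0.36 to 0.64 for *Oasl2* and from 0.23 to 0.58 for *Ifit1*. In females alone, those of *Irf7*, *Irf9*, *Stat2*, *Ifit1*, *Ifit3* and *Isg15* were below 0.

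The test for sex was passed by 0 of the 9 genes, beside 8.65% of all genes tested. The smallest adjusted p was that of *Irf1*, which was lower in males by a log2 fold change of -0.17 (SE 0.0676, adjusted p = 0.132 by edgeR), and *Irf1* passed the test when mouse 2 was left out. A difference between the sexes in the response to exercise passed the test in 0 of the 9 genes, beside 0.0551% of all genes. At an unadjusted p under 0.05 there was 1 gene of the 9 for sex, beside 3899 of the 16340 genes tested, and 0 for the response, beside 546. *Rsad2* had a log2 fold change after exercise of -0.98 (SE 0.204, adjusted p = 0.00499) in females and of -0.56 (SE 0.195, adjusted p = 0.0942) in males in an edgeR model of all mice with the sexes apart, where 3.7% of all genes passed the test in females and 6.87% in males. Mouse numbers ran with sex, with numbers up to 6 and from 20 being females and the others males, so that sex and these blocks of consecutive numbers cannot be told apart.

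Mice of the same group differed in their level over the 9 genes. Mouse 21 was above the mean of the rested mD3AKO mice in all 9 genes, by 0.54 on average on the log2 scale, and was the highest of its group in 8. Mouse 19 was above the mean of the exercised mD3AKO mice in all 9 genes, by 0.61 on average, and was also the highest of its group in 8. *Isg15* was at 1.87 CPM in mouse 19 and at 0.638 to 0.845 CPM in the other exercised mD3AKO mice. *Ifit1* was at 7.40 CPM in mouse 19, against 2.53 to 4.54 CPM in the other mice of its group. *Ifit3* was at 5.83 CPM in mouse 21 and at 2.45 to 3.91 CPM in the other rested mD3AKO mice. At the low end, mouse 10 of the exercised and mouse 15 of the rested mD3AKO mice were above the group mean in 0 of the 9 genes, with mean deviations of -0.31 and -0.30.

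**Figure D3:**
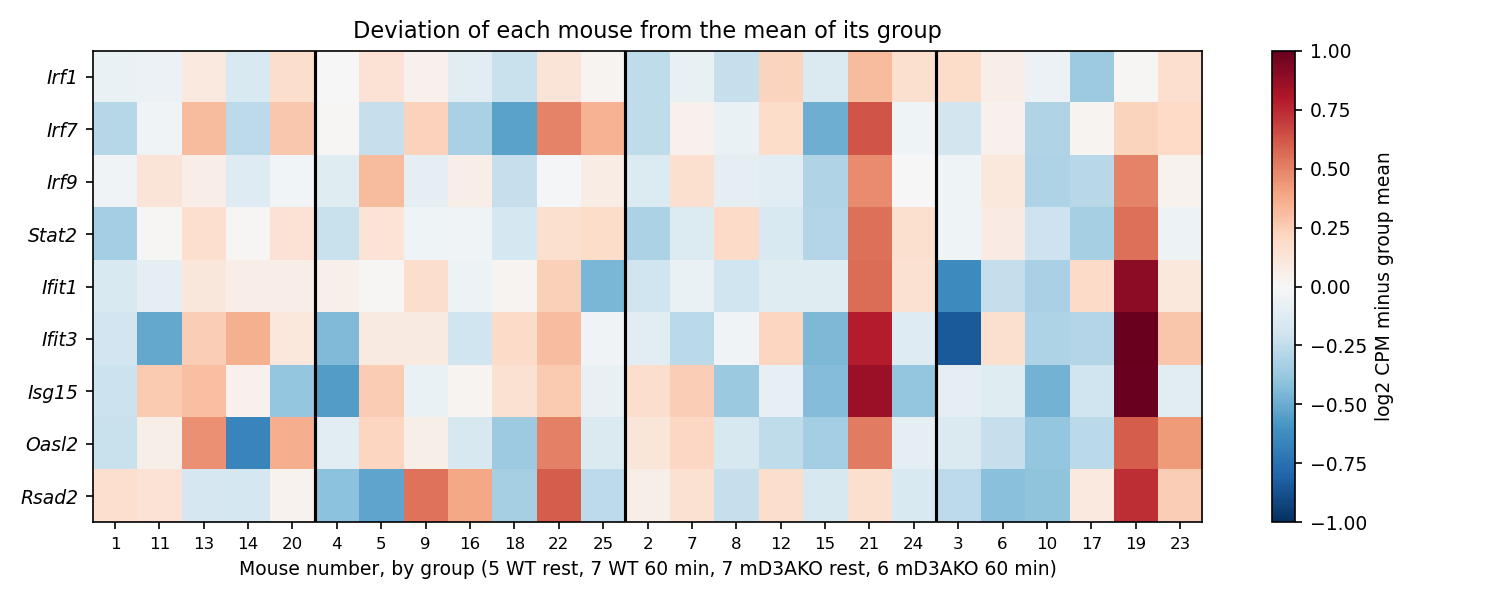
Log2 CPM of each gene in each mouse minus the mean of the group of that mouse, with red above and blue below the mean and vertical lines between the groups. Mice 21 and 19 are above their group means in all 9 genes, and mice 15 and 10 are above in 0.

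Marker genes of other cells were summed in the same mice. The summed level of 16 leukocyte and macrophage markers was 293 CPM in mouse 19, the highest of the exercised mD3AKO mice (79.5 to 293 CPM), and 281 CPM in mouse 21, the second highest of the rested mD3AKO mice (108 to 393 CPM). In WT mice the sum ranged from 160 to 227 CPM at rest and from 112 to 283 CPM after exercise. All 16 markers passed the filter, and 1 of them, *Cx3cr1*, was lower after exercise. The 12 markers of lymphocytes and natural killer cells were at no more than 16 counts in any library, with *Cd3e* at 3 or fewer, and none passed the filter. The summed level of 8 fibroblast markers was 4110 CPM in mouse 21, the second highest of its group, and 1730 CPM in mouse 19. The sum of 9 muscle fiber markers was lowest of its group in mouse 21 and second highest in mouse 19. The part of these cells in the deviations of mice 19 and 21 was not tested.

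After subtraction of group means, the 9 genes varied in the same direction across the 25 mice, with positive Pearson correlations in all 36 pairs, a median of 0.53 and a range of 0.10 to 0.79. Spearman correlations had a median of 0.45. These pairs share libraries, and the values are a description. The highest correlation was that of *Irf9* with *Stat2*, at 0.79, followed by *Irf9* with *Isg15* at 0.77 and *Ifit1* with *Ifit3* at 0.75. *Irf1* and *Rsad2* had the lowest, at 0.10. Without mice 19 and 21 the median was 0.32, 30 of the 36 correlations were positive, and the range was -0.13 to 0.63. These 2 mice were chosen because they stood high in the same genes. Lower correlations without them follow largely from that choice, and no conclusion is drawn from the fall. *Irf7* and *Oasl2* had the highest correlation over the remaining 23 mice, at 0.63 (0.69 over 25 mice), whereas *Ifit1* with *Irf9* went from 0.51 to -0.10.

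**Figure D4:**
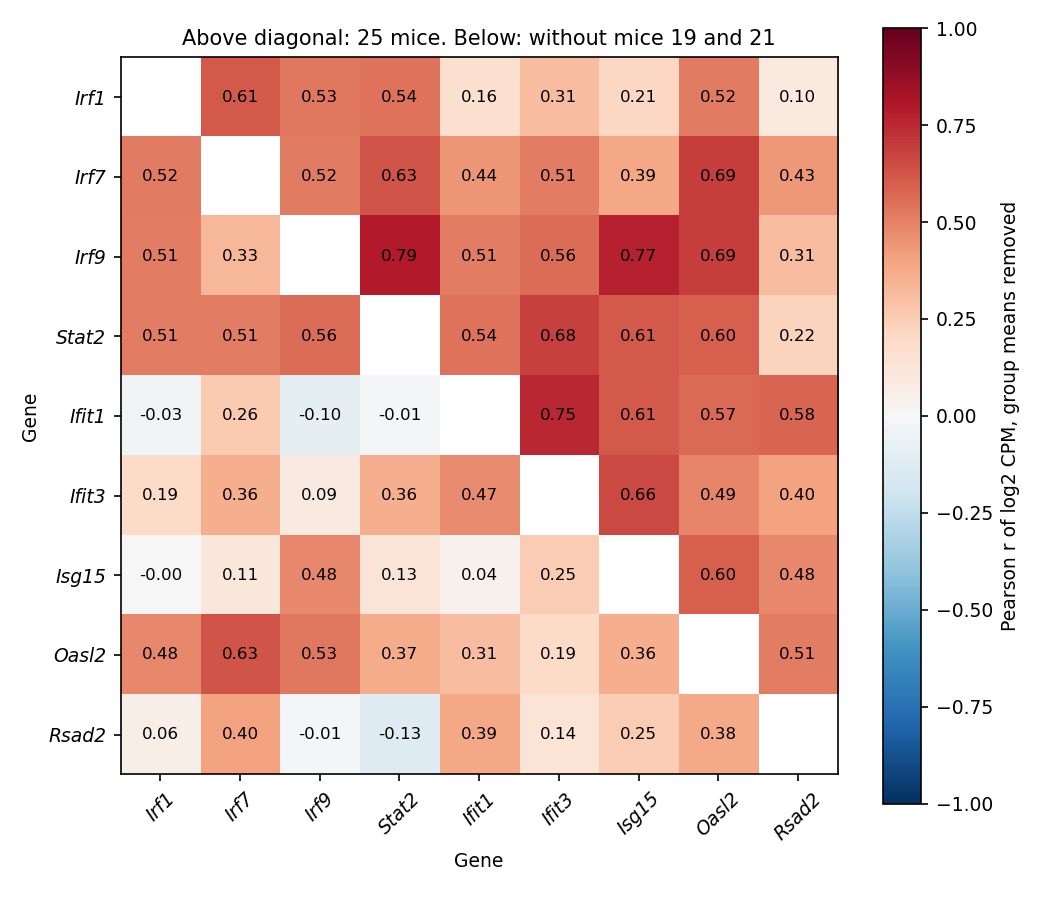
Pearson correlation of log2 CPM between each pair of the 9 genes after subtraction of group means, above the diagonal over 25 mice and below it over 23 mice without mice 19 and 21. The median is 0.53 above the diagonal and 0.32 below it.

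The genes most like the mean of *Irf7*, *Ifit1*, *Ifit3*, *Isg15*, *Oasl2* and *Rsad2* over the 25 mice, each standardized after subtraction of group means, were *Parp14* (Pearson r = 0.84), *Cmpk2* (0.84), *Tcirg1* (0.82), *Phf11d* (0.82) and *Cers2* (0.80). Without mice 19 and 21, these correlations were 0.66, 0.70, 0.64, 0.71 and 0.64. *Cmpk2*, a mitochondrial nucleotide kinase, is on chromosome 12 as is *Rsad2*, and its log2 fold change after exercise was -0.20 (SE 0.142, adjusted p = 0.473 by edgeR). Of the 50 genes most like this mean, 8 were on the lists of pathway genes, beside 123 of the 16340 genes tested. *Irf1* was most like *Pard6g* (0.84), *Zbtb8a* (0.83), *Tradd* (0.82), *Cacna1c* (0.81) and *Tor1a* (0.79). Of the 50 genes most like *Irf1*, 2 were on those lists, beside the same 123 of all genes tested.

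The other genes of the pathway were examined from 7 lists of 151 genes, 123 of which were tested. After exercise 11 of them were higher (8.94%, beside 5.70% of all genes) and 21 were lower (17.1%, beside 4.69% of all genes), with a median log2 fold change of -0.087. The lists were chosen with earlier results of these data known. These shares are therefore a description and cannot be read as an enrichment. Without TMM factors 1 was higher and 11 were lower, and without mice 19 and 21 together 6 were higher. With 1 mouse left out, 5 to 11 were higher, with 5 when mouse 1, 12, 14 or 19 was left out. None differed by genotype at an adjusted p under 0.05 by edgeR, beside 0.269% of all genes, and 7 of the 123 (5.69%) had an unadjusted p under 0.05, beside 1018 of the 16340 genes tested. Of the interferon ligands, 0 of 21 passed the filter. *Ifnb1* was at 0 in every library, *Ifng* had at most 1 count, and *Ifnk*, the ligand with the most, had at most 5 counts in a library. A count of 0 allows up to 3 counts in a library, so a change in ligand transcripts below that level was not detectable at this depth.

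Of the receptors and kinases, 9 of 10 were tested, and *Ifngr1*, a subunit of the interferon gamma receptor, was higher after exercise with a log2 fold change of 0.38 (SE 0.0670, adjusted p = 0.000296 by edgeR). *Ifnar2*, the signalling subunit of the type I receptor, was lower by -0.40 (SE 0.0773, adjusted p = 0.000693), as was *Il10rb*, shared by the receptors for type III interferons and interleukin 10, by -0.36 (SE 0.0905, adjusted p = 0.00830). *Ifnar2* was at 8.20 ± 1.08 CPM at rest (n = 12) and at 6.21 ± 0.777 CPM after exercise (n = 13), and *Ifngr1* was at 38.1 ± 4.15 and 49.6 ± 6.06 CPM. The partner subunits *Ifnar1* (-0.17, SE 0.0599) and *Ifngr2* (0.03, SE 0.0433) did not pass the test. Among the 9 other interferon regulatory factor genes, *Irf2bp2*, a corepressor partner of IRF2, was higher by 0.60 (SE 0.0975, adjusted p = 9.84e-05), as were *Irf8* (0.40) and *Irf2* (0.19). The calls of *Irf2* and *Irf8* were each lost in more than 10 of the 25 fits that left out 1 mouse. Of 16 nucleic acid sensors and adaptors tested, *Ticam1* (0.39) and *Tbk1* (0.16) were higher and *Tlr3* was lower (-0.40), these encoding the receptor for double-stranded RNA (*Tlr3*), its adaptor (*Ticam1*) and a kinase that activates IRF3 (*Tbk1*).

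Of the 47 other antiviral effectors tested, 3 were higher and 7 lower after exercise, with a median log2 fold change of -0.096. The largest rise was that of *Oas2*, an oligoadenylate synthetase, at 0.38 (SE 0.114, adjusted p = 0.0281 by edgeR), and the largest fall was that of *Tnfsf10*, the death ligand TRAIL. *Tnfsf10* was at 10.0 ± 1.21 CPM at rest and 2.96 ± 0.487 CPM after exercise, and all 13 exercised mice lay below every rested mouse (log2 fold change -1.76, SE 0.0844). *Tnfsf10* was put on this list with its fall already known.

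Of the 31 genes of interferon gamma response and antigen presentation tested, 2 were higher and 9 lower after exercise, with a median of -0.129. The largest fall was that of *Cd274*, which encodes the immune checkpoint ligand PD-L1. *Cd274* was at 4.12 ± 0.667 CPM at rest and 2.00 ± 0.595 CPM after exercise, with 12 of 13 exercised mice below every rested mouse (log2 fold change -1.04, SE 0.123, adjusted p = 9.68e-07 by edgeR). The largest rise was that of the chemokine *Cxcl10*, at 1.30 (SE 0.417, adjusted p = 0.0457 by edgeR), whose level was only 0.189 ± 0.135 CPM at rest and 0.484 ± 0.472 CPM after exercise. Its call was kept in 10 of the 25 fits that left out 1 mouse, and without mouse 19 its log2 fold change was 0.94 (adjusted p = 0.122 by edgeR). Of the 9 genes that were lower, 6 were guanylate-binding protein genes (*Gbp2*, *Gbp3*, *Gbp4*, *Gbp5*, *Gbp7* and *Gbp9*), which encode interferon-induced GTPases and were singled out after their values were seen. Of the other guanylate-binding protein genes on the list, *Gbp6* (0.06, SE 0.248) and *Gbp10* (0.16, SE 0.243) did not pass the test, and *Gbp8* did not pass the filter. *Gbp5* had the largest of these changes, from 4.15 ± 0.678 CPM at rest to 2.17 ± 0.425 CPM after exercise. Of the 11 feedback inhibitors, *Pias3*, an inhibitor of STAT proteins, was lower by -0.25 (SE 0.0780, adjusted p = 0.0359 by edgeR), and none was higher by that test. This call was kept in 14 of the 25 fits that left out 1 mouse.

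**Figure D5:**
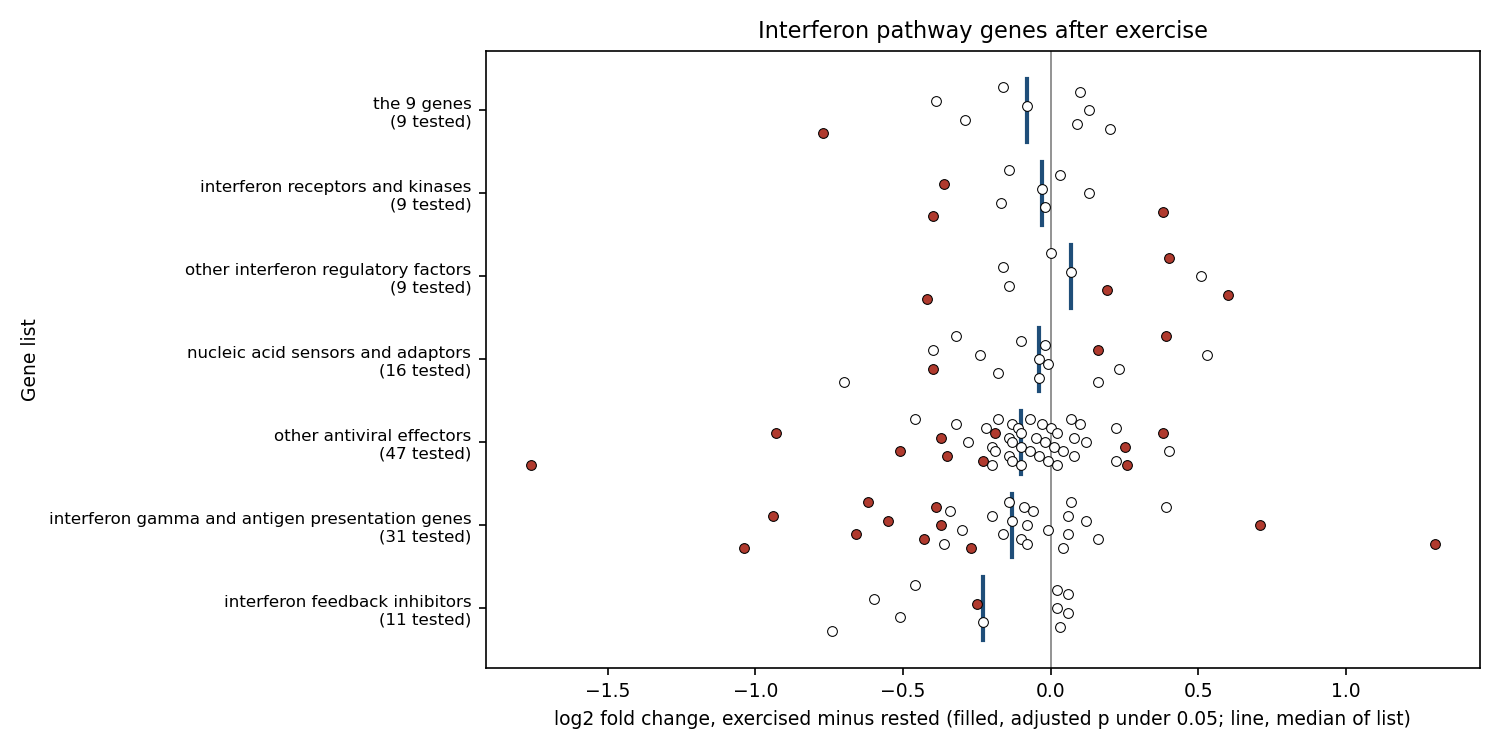
Log2 fold change after exercise of each tested gene of the 9 and of the 6 other lists with tested genes, with filled points where the adjusted p was under 0.05 and a line at the median of each list. *Tnfsf10* at -1.76 and *Cxcl10* at 1.30 are the extremes, and 9 genes of the interferon gamma list are filled on the lower side.

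Of 10 endothelial markers, 6 were lower after exercise (*Cdh5*, *Kdr*, *Tek*, *Emcn*, *Egfl7* and *Cldn5*), 1 was higher (*Esam*), and *Pecam1*, *Tie1* and *Erg* did not pass the test. The summed level of the 10 markers was 482 to 632 CPM in rested and 403 to 526 CPM in exercised WT mice, and 474 to 606 CPM in rested and 419 to 511 CPM in exercised mD3AKO mice. Of 8 fibroblast markers, 0 passed the test for exercise, with all 8 fitted changes below 0, a median log2 fold change of -0.381 and a smallest adjusted p of 0.0549 by edgeR. Of 9 muscle fiber markers, 0 passed the test. Of 6 plasmacytoid dendritic cell markers, *Ccr9* was lower, *Siglech* and *Cox6a2* did not pass the test, and *Klk1*, *Spib* and *Ly6d* did not pass the filter. *Cox6a2*, which is also a gene of striated muscle, was at 852 CPM, so that the sum of this list was not used. Of 5 satellite cell markers, *Pax7* and *Myf5* were lower and *Sdc4* was higher, and of 5 red blood cell markers 0 passed the test. The part of these cells in the changes of *Rsad2* and of the other pathway genes was not tested.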

How the data were processed

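RNA of 25 *soleus* muscles was depleted of ribosomal RNA, made into strand-specific libraries and read as 75-bp paired ends. Per the labels and the study's methods, the authors counted reads on GENCODE M15 genes of mm10, and their processing notes name FastQC 0.11.5, STAR 2.5.3a and featureCounts 1.5.3. The deposited values are raw counts per gene, and the strand setting of counting is not given in the sources used here. Totals were 22671457 to 37431801, and none of 67 replicate pairs was identical (lowest chi-square 14.5 per gene). Symbols came from GENCODE M21 for 52403 of 52636 genes. CPM, edgeR 4.0.16 quasi-likelihood tests (TMM, filterByExpr with a minimum count of 10, 1 mean per group), Benjamini-Hochberg adjustment and a threshold of 0.05 were used, with DESeq2 1.42.0, no TMM, no filter, sex, blocks of mouse numbers, males, females and left-out mice as alternatives. The edgeR script was tested on simulated data. Log2 CPM for correlations used a prior count of 2.

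The genes and lists were chosen with earlier results of these data known. All 9 genes were named. Of the other pathway lists the called genes were named, or at least the largest rise and fall where more than 6 were called. Of the marker lists the called genes were named. For lists of either kind in which none was called, few or no genes were named. The 5 genes most like the mean of the target genes and *Irf7* and the 5 most like *Irf1* were also named. Some genes of these lists are counted but not reported here by name.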

Additional observations from a re-analysis of the deposited data

Results flagged for a closer look

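In 4 of 36 sets of values (9 genes in 4 groups), the highest mouse stood farther from the next than Dixon's 95% critical value allows, and chance alone gives about 5% of such sets. *Ifit1* was at 4.51 CPM in mouse 21 of the rested mD3AKO mice, with 3.40 CPM in the next. *Ifit3* was at 5.83 CPM in mouse 21, with 3.91 CPM in the next. *Isg15* was at 1.64 CPM in mouse 21, with 1.05 CPM in the next, and at 1.87 CPM in mouse 19 of the exercised mD3AKO mice, with 0.845 CPM in the next. The 9 genes varied together, so these are not 4 independent events.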

How the results depend on the processing

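The number of the 9 genes that passed the test for exercise was 1, and it was 0 in males alone and 1 to 2 when each mouse was left out. For genotype it was 0, 1 with DESeq2 and 0 to 1 with mice left out. For the response within WT it was 1, 2 with blocks of mouse numbers (*Oasl2* and *Rsad2*), 0 in males alone, 0 in females alone and 1 to 2 with mice left out. For the response within mD3AKO mice it was 0, 1 with DESeq2 (*Rsad2*), 1 without mice 19 and 21 together (an alternative chosen after seeing the data) and 0 to 1 with mice left out. For genotype after exercise it was 0, 1 with DESeq2 and 0 to 1 with mice left out. For sex it was 0 and, with mice left out, 0 to 1. The cause of these differences was not tested, but fits on 1 sex hold fewer samples.

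Of the other pathway genes, 11 were higher after exercise, and this number was 1 without TMM factors, 4 without a filter, 3 in males alone, 1 in females alone, 6 without mice 19 and 21 together and 5 to 11 with mice left out. The number lower, 21, was 11 without TMM factors, 13 in males alone, 5 in females alone and 18 to 29 with mice left out. Of the 32 called genes, 22 kept their call in every fit that left out 1 mouse, and no sign changed in 1055 values under alternatives.

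Signs that changed belonged to log2 fold changes that were not called. For exercise these were *Ifit1* in females alone (-0.043) and *Isg15* in males alone (0.022), and *Isg15* ranged from -0.23 to 0.028 with mice left out. For genotype without mice 19 and 21 they were *Irf7* (-0.029), *Irf9* (-0.060), *Stat2* (-0.0016) and *Ifit3* (-0.0033), and with mice left out *Irf7* ranged from -0.0063 to 0.10 and *Irf9* from -0.015 to 0.072. For the interaction in females alone they were *Irf7* (-0.017), *Irf9* (-0.19), *Stat2* (-0.18), *Ifit1* (-0.029), *Ifit3* (-0.21) and *Isg15* (-0.52). The interaction of *Irf9* was also -0.042 without TMM factors, -0.00011 without a filter and -0.013 without mice 19 and 21, and with mice left out it ranged from -0.11 to 0.098, that of *Ifit3* from -0.058 to 0.38 and that of *Isg15* from -0.049 to 0.44. The median correlation of 0.53 was 0.51 without mouse 15 and 0.32 without mice 19 and 21. With 1 mismatch allowed, 8 of the 9 genes held an ISRE (35.4% of all windows) and 9 a GAS (71.4%). Levels without TMM factors stayed within 1 SD for all 9 genes.

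No paired analysis was possible because the mouse numbers from 1 to 25 each belong to 1 mouse and no number is shared between groups. The low counts of *Isg15* limit what can be said of it, and 1 time point after exercise was measured.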
